A study of Mus musculus with 15 samples.

Results

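The genes of the mitochondrial genome were followed in adipocyte precursor cells of mouse pups raised on 2 kinds of milk. Members were all genes whose Ensembl ID maps to a symbol beginning with mt-. The annotation holds 37 of them: 13 protein-coding genes, 2 rRNA genes and 22 tRNA genes, 28 on the plus strand and 9 on the minus strand of the reference. Of these, 35 were listed among the 24673 genes of the series, 34 in preadipocytes and 33 in progenitors. The tRNA genes mt-Ta and mt-Th were not analysed here.

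The cells were flow-sorted from subcutaneous adipose tissue of wildtype C57Bl/6 pups that had been cross-fostered onto Low n6/n3 or High n6/n3 milk, a ratio of polyunsaturated fatty acids, for 12 days by one protocol of the labels and 10 by another. There were 4 libraries of CD24− preadipocytes on Low milk and 3 on High milk, and 4 libraries of CD24+ progenitors on Low milk and 4 on High milk. Low libraries carry the numbers 108, 114, 119 and 133 and High libraries 1015, 1017, 1018 and 1019, with no preadipocyte library for 1018. All groups shared the strain, the tissue and the mRNA library kit. The source name of the 4 preadipocyte Low libraries gives the High ratio, and the characteristics, which give Low, were followed. Since the number of pups behind a sample is not stated, the p-values below speak of the spread among these samples, which may be technical.

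Mitochondrial DNA is a small circular genome that encodes core subunits of the respiratory chain and of ATP synthase, together with the rRNAs and tRNAs that translate them inside the organelle. Both strands are transcribed into long precursors, and the tRNAs that lie between most other genes mark where the precursors are cut. All other proteins of the mitochondrion, including those that copy, transcribe and process this genome, are made from nuclear genes. In adipocyte precursors the respiratory chain serves the oxidation of fatty acids and glucose. The library kit enriches polyadenylated RNA, so the values of rRNA and tRNA genes are not measures of how much mature rRNA or tRNA the cells held.

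Estimated depth ran from 35.2 to 49.6 M reads in preadipocyte Low libraries and was 13.8, 69.0 and 22.9 M in preadipocyte High 1015, 1017 and 1019, and it ran from 34.4 to 39.5 M in progenitor Low and from 40.4 to 59.1 M in progenitor High libraries. Cd24a, the gene of the sorting antigen, averaged 616 ± 52.1 normalized counts in Low and 631 ± 76.5 in High preadipocytes (SD, n = 4 and 3), and 2209 ± 210 in Low and 2281 ± 442 in High progenitors (SD, n = 4 each), each population on its own normalization. The adipocyte precursor markers, 12 of 12 measured, summed to between 2706090 and 3578780 in Low and between 2182400 and 2654970 in High preadipocytes, and to between 4297320 and 5079800 in Low and between 5080060 and 5367680 in High progenitors. These ranges did not overlap in either population, but the collagen gene Col1a1 made up 85.8% of the sum in preadipocytes and 91.3% in progenitors. Without Col1a1 the ranges overlapped, at 359666 to 429916 in Low and 345760 to 423448 in High preadipocytes, and 396046 to 436443 in Low and 406645 to 443755 in High progenitors. The endothelial sum (5 of 5 markers) was also apart in preadipocytes, at 8646 to 12422 in Low and 6649 to 8572 in High libraries, and overlapped in progenitors, at 12001 to 13595 in Low and 9230 to 13302 in High libraries. Tek made up 74.8% of it in preadipocytes, and without Tek the preadipocyte ranges overlapped, at 1568 to 2932 in Low and 1645 to 3156 in High libraries. In progenitors Tek made up 71.1%, and without it the ranges still overlapped, at 2555 to 6425 in Low and 2019 to 3008 in High libraries. Of the 5 endothelial markers, 2 had a higher mean in Low than in High preadipocytes and 4 in Low than in High progenitors. The erythroid sum (5 of 5) spanned 1184 to 2282 in Low and 1991 to 7664 in High preadipocytes, and 3102 to 12482 in Low and 5780 to 29626 in High progenitors. These erythroid ranges overlapped, but 0 of the 5 markers had a higher mean in Low than in High libraries in either population. White blood cell (6 of 6), mature adipocyte (5 of 5) and muscle markers (5 of 6) had overlapping ranges as well, with preadipocyte sums of at most 442, 166 and 706 in Low and 488, 214 and 664 in High libraries. In progenitors these 3 sums were at most 592, 202 and 2444 in Low and 458, 139 and 1505 in High libraries. No measured marker was at 0 in every library of a group, and the part of these lists in the results below was not tested.

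Several mitochondrial genes have near-identical nuclear copies, so that reads from the shared stretch carry little or nothing to place them, which bears on the values that follow. A stretch of chromosome 1 on the minus strand (GRCm38, chr1:24611535-24616197) carries 7 annotated pseudogenes that match mitochondrial genes at 99% identity or more, 5 of them at 100%. Sequences of GENCODE M21 transcripts on GRCm38 show how little there is to tell these loci apart. In the next 4 lines the capital marks the base at which the loci differ.
mt-Nd3 (chrM:9459-9491, plus strand): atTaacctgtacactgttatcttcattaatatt
Gm28438 (chr1:24613087-24613119, minus strand): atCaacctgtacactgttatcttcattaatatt
mt-Co1 (chrM:6390-6423, plus strand): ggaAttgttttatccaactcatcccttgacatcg
Gm29216 (chr1:24616155-24616188, minus strand): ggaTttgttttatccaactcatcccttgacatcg
Within the aligned bases, counted from 1 at the 5′ end of the mitochondrial gene, the differences are T3C in mt-Nd3 against Gm28438 and A1066T in mt-Co1 against Gm29216. The copy of mt-Co2, which encodes a copper-binding subunit of cytochrome c oxidase, matched over 681 bases with no difference. Its first 120 bases are printed because this pair had the most uneven counts.
mt-Co2 and Gm28661 (chrM:7013-7132, plus strand): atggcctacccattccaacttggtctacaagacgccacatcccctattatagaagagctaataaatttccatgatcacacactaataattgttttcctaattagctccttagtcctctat

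The gene mt-Co2 was listed at 45.7, 0, 588 and 559 normalized counts in preadipocyte Low 108, 114, 119 and 133, and at 892, 646 and 2517 in preadipocyte High 1015, 1017 and 1019. Its identical copy Gm28661 was listed at 115677, 147996, 117935 and 121651 in the same Low libraries and at 354433, 325159 and 223201 in the same High libraries. In progenitors, mt-Co2 was listed at 0, 604, 2091 and 0 in Low 108, 114, 119 and 133, and at 0, 93.7, 0 and 0 in High 1015, 1017, 1018 and 1019. Thus between 0 and 1.56% of the counts of this pair stood under the mitochondrial gene.

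The split differed between pairs. The share under the mitochondrial gene ran from 1.26 to 6.87% for mt-Co3 (copy Gm28437), from 3.73 to 10.4% for mt-Nd3 (Gm28438) and from 6.79 to 18.9% for mt-Atp6 (Gm10925). It ran from 46.0 to 66.6% for mt-Nd4 (Gm28439) and from 83.9 to 100% for mt-Co1 (Gm29216). The match to the copy covers 876 of the 1378 bases of mt-Nd4 and 483 of the 1545 bases of mt-Co1. For the others it covers nearly the whole gene: 681 of 684 bases of mt-Co2, 783 of 784 of mt-Co3, 678 of 681 of mt-Atp6 and 345 of 348 of mt-Nd3. The part of these lengths in the split was not tested. Gm29216 was listed at 0, 0, 41331 and 30851 in progenitor Low 108, 114, 119 and 133, so 2 of these libraries had every count of the pair under mt-Co1. The copy of mt-Nd4l, Gm10222, was not analysed here. Values of these 7 genes are uncertain one by one, and the text gives them alone and, for the 6 pairs, with the copy added, a step chosen after the data had been seen.

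**Figure D1:**
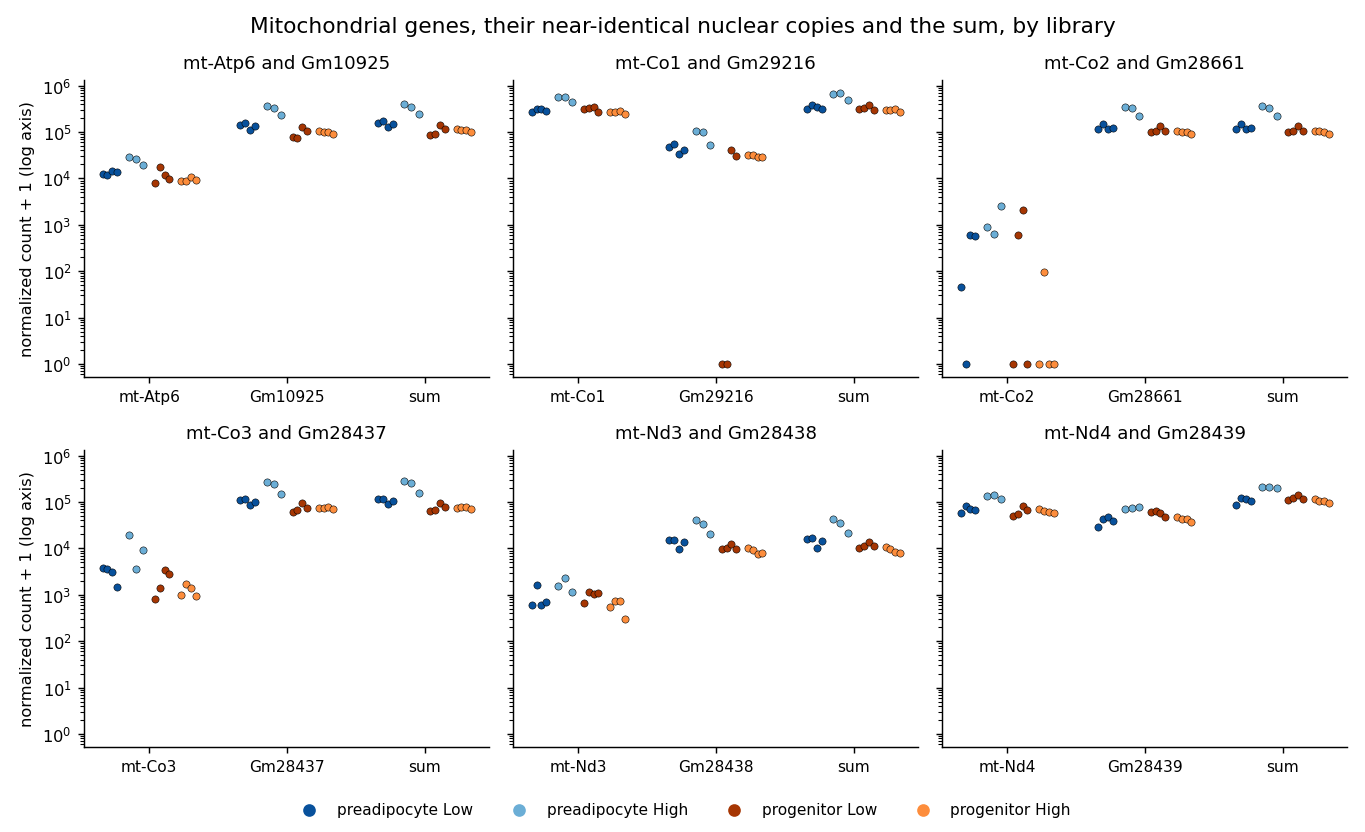
Normalized count plus 1 (log axis) of 6 mitochondrial genes, of their near-identical copies on chromosome 1 and of the sum, 1 point per library, coloured by group. For mt-Co2, 6 libraries lie at the bottom of the axis, where a gene is listed at 0, while Gm28661 and the sum lie at 91834 or above in every library; the High preadipocyte libraries have the highest sums in each panel.

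In preadipocytes, mitochondrial genes took 2.61, 3.03, 2.73 and 2.5% of all normalized counts in Low 108, 114, 119 and 133, against 6.35, 5.83 and 4.54% in High 1015, 1017 and 1019. In progenitors they took 2.38, 2.67, 2.72 and 2.16% in Low 108, 114, 119 and 133, against 2.16, 1.95, 1.98 and 1.78% in High 1015, 1017, 1018 and 1019. All 4 preadipocyte Low libraries lay below all 3 High libraries. Progenitors had the other order, with Low libraries above High ones except Low 133, which was level with High 1015. The means were 2.72 ± 0.226% in Low and 5.58 ± 0.931% in High preadipocytes (SD, n = 4 and 3), and 2.48 ± 0.259% in Low and 1.97 ± 0.155% in High progenitors (SD, n = 4 each). The share is a sum over the members and was not tested. Col1a1 lay the other way round, at a mean of 2735060 normalized counts in Low and 1972940 in High preadipocytes, and 4177790 in Low and 4800550 in High progenitors. Of the 12 precursor markers, 8 had a higher mean in Low than in High preadipocytes and 2 in Low than in High progenitors, and their part in the share was not tested. In bulk RNA, fewer cells of a type and less RNA per cell cannot be told apart.

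Set by library number, the preadipocyte share was 1.01 to 1.16 times the progenitor share in the 4 Low numbers, and 2.54 to 2.99 times in the 3 High numbers with both libraries. The High preadipocyte libraries were thus the ones that stood apart. With the chromosome 1 copies added, the shares were 4.04 ± 0.348% in Low and 8.58 ± 1.66% in High preadipocytes (SD, n = 4 and 3), and 3.39 ± 0.361% in Low and 2.81 ± 0.202% in High progenitors (SD, n = 4 each).

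Protein-coding genes made up most of these counts, with 2.58 ± 0.211% of all normalized counts in Low and 5.28 ± 0.826% in High preadipocytes (SD, n = 4 and 3), and 2.40 ± 0.245% in Low and 1.91 ± 0.142% in High progenitors (SD, n = 4 each). The rRNA genes took 0.138 ± 0.0180% in Low and 0.285 ± 0.112% in High preadipocytes, and 0.0824 ± 0.0140% in Low and 0.0619 ± 0.0133% in High progenitors. The tRNA genes took 0.00359 ± 0.00105% in Low and 0.00607 ± 0.000853% in High preadipocytes, and 0.00465 ± 0.00130% in Low and 0.00215 ± 0.000200% in High progenitors. In the tRNA class the groups did not overlap in either population, and lay in opposite order in preadipocytes and progenitors. Of mitochondrial counts, rRNA genes held 5.09 ± 0.405% in Low and 5.0 ± 1.22% in High preadipocytes, and 3.30 ± 0.266% in Low and 3.12 ± 0.426% in High progenitors. The minus strand, mt-Nd6 and 6 tRNA genes in each population, held 0.0883 ± 0.0150% in Low and 0.113 ± 0.0166% in High preadipocytes, and 0.100 ± 0.0219% in Low and 0.0698 ± 0.00539% in High progenitors. More than 99% of mitochondrial counts therefore stood on the plus strand in every group.

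**Figure D2:**
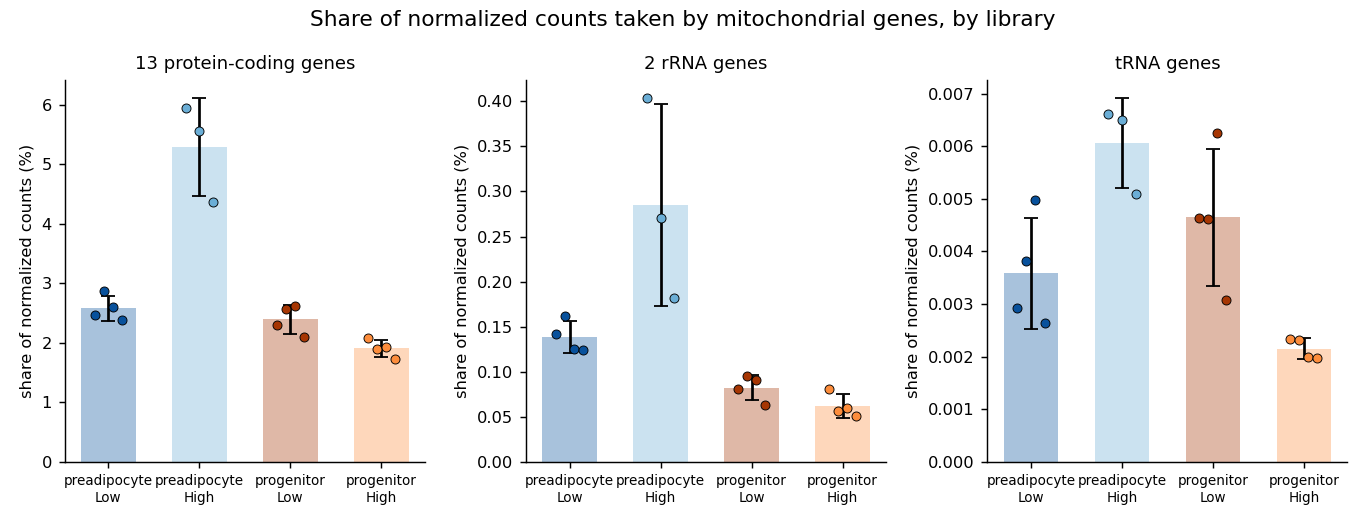
Share of all normalized counts (%) taken by mitochondrial protein-coding, rRNA and tRNA genes in each group; points are libraries, bars are means and error bars are SD (n = 4, 3, 4 and 4 libraries from left to right). In each class the Low preadipocyte libraries lie below the High ones, while in progenitors the Low mean is above the High mean.

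The difference between milks was tested gene by gene with limma on log2(normalized count + 1), Low minus High, over all genes with a mean of at least 10, with Benjamini-Hochberg adjustment and a threshold of 0.05. In preadipocytes 27 members passed that filter and all 27 had lower values on Low milk, with a median log2 fold change of −0.90, against 0.04 over all 15893 genes tested. Of the 27, 11 fell: 10 of 13 protein-coding genes, 0 of 2 rRNA genes and 1 of 12 tRNA genes. Over all genes tested, 2.35% fell. Low and High libraries did not overlap in 20 of the 27 (11 protein-coding, 2 rRNA and 7 tRNA genes), against 11.0% of all genes tested with every Low library below every High one. The filter acts on the mean over both milks, so tRNA genes of low level passed in part through the milk on which they were higher.

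These calls lay near the threshold. None of the 11 held when a trend on GC content and length was removed, as set out below, or when limma was run without its trend and robust options. Over all genes tested, 458 passed in either direction, against 9 and 6 in those settings. The count of members was 0 without High 1017, Low 108 or Low 133 and 1 without High 1015 or Low 119. It was 2 without Low 114 and 13 without High 1019, while the median lay between −1.06 and −0.80. Over all genes 7, 2 and 4 passed without High 1017, Low 108 and Low 133, and 16 without High 1015 or Low 119. Without Low 114 13 of all genes passed, and without High 1019 1160.

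Of complex I, the NADH dehydrogenase that feeds electrons into the chain, 7 subunits are mitochondrial and the genes of 6 fell. One of them, mt-Nd4l, had 28967, 40068, 41643 and 34757 normalized counts in preadipocyte Low 108, 114, 119 and 133, against 76565, 76362 and 70164 in High 1015, 1017 and 1019. The High libraries lay close together and well above the Low ones, a log2 fold change of −1.05 ± 0.13 (SE, limma adjusted p = 0.0204). The fold changes of mt-Nd1, mt-Nd4, mt-Nd5 and mt-Nd2 were −0.89 ± 0.13, −0.94 ± 0.13, −0.74 ± 0.11 and −0.67 ± 0.12 (SE, limma adjusted p from 0.0225 to 0.0347). In each of these 4 genes the groups were apart as well. For mt-Nd1, whose protein lies where the membrane arm of the complex meets the peripheral arm, the levels were 98717 to 129187 normalized counts in Low and 175847 to 231311 in High preadipocytes, and 106386 to 135644 in Low and 86162 to 104428 in High progenitors. For mt-Nd5, a proton-pumping subunit, they were 43838 to 56079 in Low and 78497 to 91053 in High preadipocytes, and 68205 to 80767 in Low and 51759 to 64493 in High progenitors. Both genes thus had Low below High in preadipocytes and Low above High in progenitors, without overlap. For mt-Nd3 the fold change was −1.01 ± 0.37 (SE, limma adjusted p = 0.163), and with its copy added −1.19 ± 0.24 (SE, limma adjusted p = 0.0442).

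The remaining subunit gene, mt-Nd6, is the one protein-coding gene of the minus strand. It had 854, 745, 660 and 717 normalized counts in preadipocyte Low 108, 114, 119 and 133, against 2446, 1755 and 1545 in High 1015, 1017 and 1019. No Low library came near the lowest High library, and the log2 fold change was −1.34 ± 0.17 (SE, limma adjusted p = 0.0204). In progenitors it had 1020, 1144, 780 and 665 in Low 108, 114, 119 and 133, against 609, 488, 556 and 423 in High 1015, 1017, 1018 and 1019. Here every Low library lay above every High library, and the log2 fold change of 0.78 ± 0.19 did not pass over all genes (SE, limma adjusted p = 0.566). In the annotation mt-Nd6 and mt-Nd5 overlap by 14 bases on opposite strands. The strand setting of the quantification is not given in the sources used here, so reads of mt-Nd6 or of minus-strand tRNA genes and reads of the opposite strand may not have been told apart.

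The gene mt-Cytb encodes cytochrome b, the mitochondrial subunit of complex III, and had the smallest p of the members. It had 152012, 187055, 157924 and 155034 normalized counts in preadipocyte Low 108, 114, 119 and 133, against 430696, 401019 and 311668 in High 1015, 1017 and 1019. The groups were far apart, with a log2 fold change of −1.22 ± 0.13 (SE, limma adjusted p = 0.0186). In progenitors it had 144000, 161356, 180252 and 151660 in Low 108, 114, 119 and 133, against 153996, 139273, 145796 and 131542 in High 1015, 1017, 1018 and 1019. Those groups overlapped, and the log2 fold change was 0.16 ± 0.08 (SE, limma adjusted p = 0.748).

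Of the 3 mitochondrial subunit genes of complex IV, the cytochrome c oxidase that passes electrons to oxygen, mt-Co1, which carries the catalytic centre, was the one that fell. It averaged 293621 ± 23525 normalized counts in Low and 525881 ± 78352 in High preadipocytes (SD, n = 4 and 3), a log2 fold change of −0.83 ± 0.12 (SE, limma adjusted p = 0.0230). For mt-Co2 the fitted value was −4.18 ± 2.02 (SE, limma adjusted p = 0.270), which depends on the pseudocount since 1 library is at 0. For mt-Co3 it was −1.63 ± 0.54 (SE, limma adjusted p = 0.129). With the chromosome 1 copies added, the values became −1.24 ± 0.16 for mt-Co2 (SE, limma adjusted p = 0.0197), −1.08 ± 0.19 for mt-Co3 (0.0355) and −0.85 ± 0.13 for mt-Co1 (0.0300). All 3 subunit genes then fell, and the error of mt-Co2 shrank.

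The ATP synthase genes mt-Atp8 and mt-Atp6 overlap by 43 bases on the same strand. These are the capitals in the sequence of mt-Atp8, shown because reads from that stretch belong to both genes.
mt-Atp8 (chrM:7766-7969, plus strand): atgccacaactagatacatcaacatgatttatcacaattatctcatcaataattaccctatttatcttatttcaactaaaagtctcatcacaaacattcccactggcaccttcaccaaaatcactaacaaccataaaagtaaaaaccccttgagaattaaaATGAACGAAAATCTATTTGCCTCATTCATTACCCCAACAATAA
The level of mt-Atp8 was 82638, 104340, 72297 and 90349 normalized counts in preadipocyte Low 108, 114, 119 and 133, against 298206, 240771 and 179608 in High 1015, 1017 and 1019. This was the largest fall among the 10 protein-coding genes called, a log2 fold change of −1.44 ± 0.18 (SE, limma adjusted p = 0.0204). In progenitors it was 97083, 104307, 97734 and 82698 in Low 108, 114, 119 and 133, against 79540, 69477, 67801 and 52770 in High 1015, 1017, 1018 and 1019. The progenitor groups did not overlap either, with Low above High, and the log2 fold change was 0.51 ± 0.12 (SE, limma adjusted p = 0.563). For mt-Atp6 the preadipocyte fold change was −0.90 ± 0.14 (SE, limma adjusted p = 0.0266), and −1.13 ± 0.17 with its copy added (0.0251).

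With the copies added, all 13 protein-coding genes fell in preadipocytes, and 14 of 27 members in all, against 2.34% of all genes tested. Their log2 fold changes then lay between −1.44 (mt-Atp8) and −0.67 (mt-Nd2). With the GC and length trend removed, none of the 6 added copies passed alone in preadipocytes (limma adjusted p from 0.0667 to 0.851). The sums were not fitted with that trend removed or with a library left out. Of the 4 more diverged nuclear copies, at 95 to 98% identity, Gm13341, a copy of mt-Co2 on chromosome 2, had 69.9, 100, 88.8 and 69.0 normalized counts in preadipocyte Low 108, 114, 119 and 133, against 252, 263 and 185 in High 1015, 1017 and 1019. It fell as well, by a log2 fold change of −1.50 ± 0.24 (SE, limma adjusted p = 0.0317), a call that ended with the GC and length trend removed (−0.88 ± 0.22 SE, limma adjusted p = 0.0872). The other 3, Gm13340, Gm13339 and Gm4076, had fold changes of −0.77 ± 0.19, −0.96 ± 0.39 and −0.92 ± 0.40 (SE, limma adjusted p = 0.0701, 0.203 and 0.225).

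The genes mt-Rnr1 and mt-Rnr2 encode the rRNA of the small and of the large subunit of the mitochondrial ribosome. The level of mt-Rnr2 was 31196, 40662, 30504 and 31247 normalized counts in preadipocyte Low 108, 114, 119 and 133, against 100356, 66014 and 45663 in High 1015, 1017 and 1019. The High libraries were spread widely, with High 1019 close to Low 114, and the log2 fold change was −1.02 ± 0.24 (SE, limma adjusted p = 0.0578). For mt-Rnr1 it was −0.75 ± 0.22 (SE, limma adjusted p = 0.0988). In progenitors the values were 0.39 ± 0.15 for mt-Rnr2 and 0.28 ± 0.18 for mt-Rnr1 (SE, limma adjusted p = 0.690 and 0.758), and the groups overlapped in both genes.

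**Figure D3:**
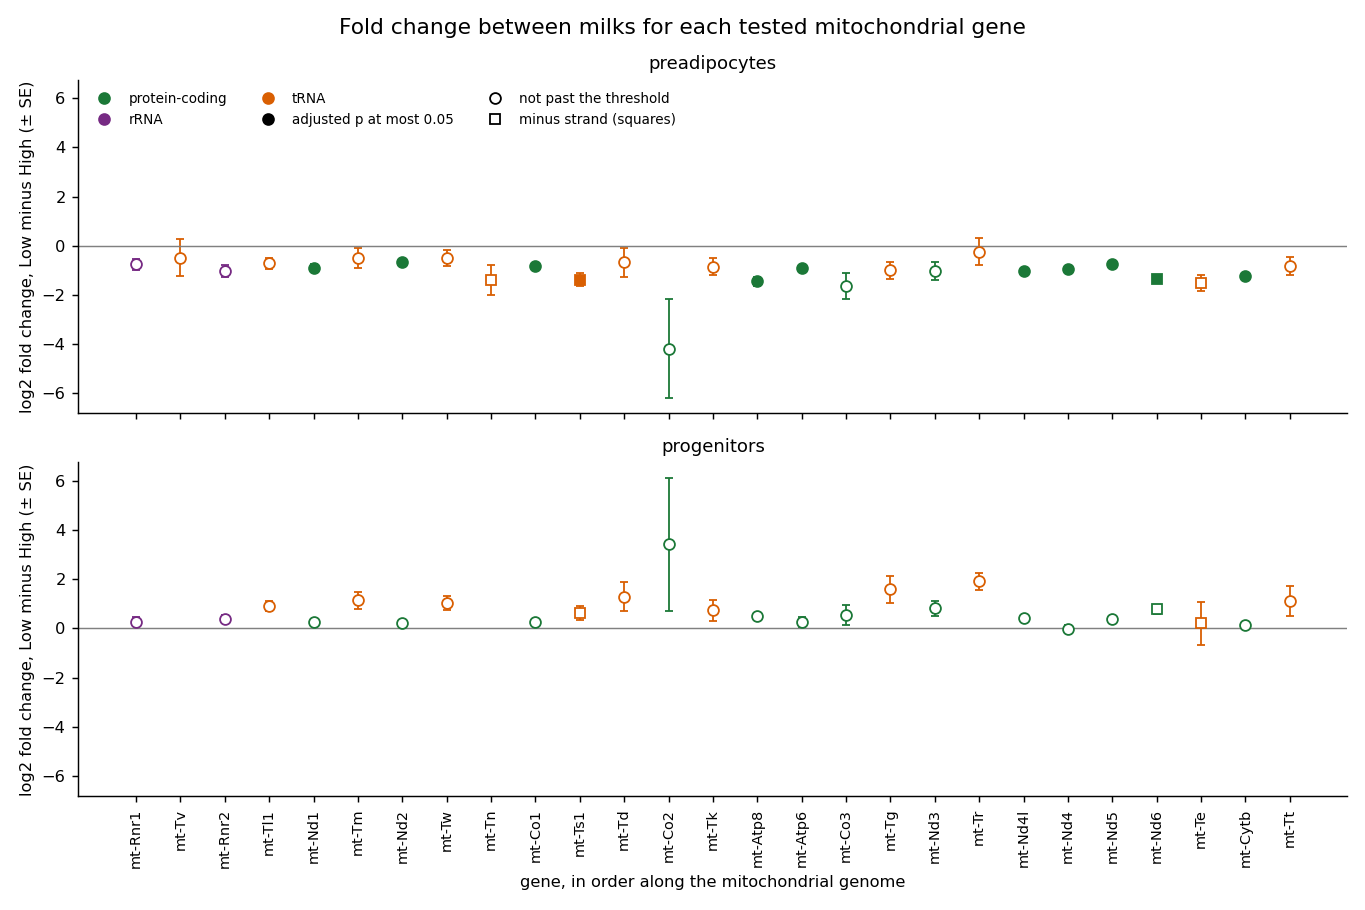
Log2 fold change, Low minus High, with its SE for each tested mitochondrial gene in genome order, preadipocytes above and progenitors below, coloured by class; filled symbols are past the adjusted threshold and squares are on the minus strand. All 27 preadipocyte values lie below 0 and 11 are filled, while 24 of 25 progenitor values lie above 0 and none is filled; the long error bars belong to mt-Co2.

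The tRNA genes had far fewer counts than the other classes. Of the 20 listed, 12 passed the filter in preadipocytes and 10 in progenitors. The 8 that passed in neither ranged from 0 to 21.8 normalized counts over all libraries. One read was worth between 0.498 and 2.43 normalized counts, so a library's value of such a gene rests on few reads. These 8 genes were left out by the filter, and no difference between milks is reported for them. The sequences of the 4 tRNA genes whose values are given by library below are printed in the sense of the gene, with no base in capitals. They are mt-Tr (arginine), mt-Tl1 (leucine), mt-Ts1 (serine) and mt-Te (glutamate).
mt-Tr (chrM:9808-9875, plus strand): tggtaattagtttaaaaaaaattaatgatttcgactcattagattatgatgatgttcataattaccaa
mt-Tl1 (chrM:2676-2750, plus strand): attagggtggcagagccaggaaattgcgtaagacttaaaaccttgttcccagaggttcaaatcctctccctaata
mt-Ts1 (chrM:6870-6938, minus strand): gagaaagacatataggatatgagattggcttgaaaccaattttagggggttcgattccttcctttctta
mt-Te (chrM:14071-14139, minus strand): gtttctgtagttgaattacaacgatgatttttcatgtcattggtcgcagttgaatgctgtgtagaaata

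In preadipocytes mt-Ts1 was the tRNA gene that fell. It had 65.1, 61.1, 66.6 and 48.0 normalized counts in Low 108, 114, 119 and 133, against 214, 135 and 136 in High 1015, 1017 and 1019. Every High library was well above every Low one, and the log2 fold change was −1.38 ± 0.26 (SE, limma adjusted p = 0.0383). The gene mt-Te, next to mt-Nd6 on the minus strand, had 11.7, 14.9, 14.9 and 15.5 in Low 108, 114, 119 and 133, against 53.4, 36.5 and 39.2 in High 1015, 1017 and 1019. The groups were apart, and the fold change of −1.52 ± 0.34 missed the threshold (SE, limma adjusted p = 0.0526). Of the 4 minus-strand genes tested in preadipocytes 2 fell, with a median of −1.39 on the log2 scale, and of the 23 plus-strand genes 9 fell, with a median of −0.85. The minus-strand gene mt-Tn passed the filter through its High libraries, with a mean of 8.19 in Low and 22.8 in High. So did mt-Tv on the plus strand, at 8.77 and 12.2, which favours lower values on Low milk in both. The strands were not compared by a test.

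In progenitors 25 members passed the filter and 24 of them had higher values on Low milk, with a median log2 fold change of 0.55, against −0.00366 over all genes. By class the medians were 0.39 over 13 protein-coding, 0.33 over 2 rRNA and 1.08 over 10 tRNA genes. None of the 25 passed in limma, where 0.0% of all 15973 genes passed. An unadjusted p under 0.05 was reached by 15 of the 25 members and by 1099 of all genes. In 9 members (mt-Nd1, mt-Atp8, mt-Nd4l, mt-Nd5, mt-Nd6, mt-Tl1, mt-Tw, mt-Ts1 and mt-Tr) every Low library lay above every High library, against 2.03% of all genes tested, and in 0 members below. The authors' deposited table calls 4 members higher on Low milk in progenitors (mt-Tr, mt-Tl1, mt-Nd5 and mt-Nd6) and 0 lower, against 0.351% of all its genes called higher. For preadipocytes the authors' deposited table calls 16 of 26 members lower (11 protein-coding, 2 rRNA and 3 tRNA genes), against 7.39% of all its genes.

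The smallest p in progenitors was that of mt-Tr. It had 141, 161, 193 and 72.7 normalized counts in progenitor Low 108, 114, 119 and 133, against 33.3, 43.7, 38.2 and 26.1 in High 1015, 1017, 1018 and 1019. Low 133 was the lowest of its group and still lay above every High library. The log2 fold change was 1.91 ± 0.34 (SE, limma adjusted p = 0.479), while the authors' deposited table gives 2.01 with an adjusted p of 4.74e-05. In preadipocytes mt-Tr had 40.7, 104, 137 and 31.0 in Low 108, 114, 119 and 133, against 53.4, 96.4 and 88.9 in High 1015, 1017 and 1019. Those groups overlapped (log2 fold change −0.24 ± 0.53 SE, limma adjusted p = 0.828).

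The gene mt-Tl1, which lies between mt-Rnr2 and mt-Nd1, had the most counts of the tRNA genes. In preadipocytes it had 630, 864, 1137 and 643 normalized counts in Low 108, 114, 119 and 133, against 1334, 1473 and 1138 in High 1015, 1017 and 1019. Low 119 lay just under High 1019 there, and the log2 fold change was −0.72 ± 0.22 (SE, limma adjusted p = 0.106). In progenitors it had 1201, 1109, 1685 and 855 in Low 108, 114, 119 and 133, against 647, 696, 616 and 554 in High 1015, 1017, 1018 and 1019. All Low libraries lay above all High ones there, with a log2 fold change of 0.91 ± 0.19 (SE, limma adjusted p = 0.479). The order of the groups was likewise opposite for mt-Tw, of the tryptophan tRNA, at 26.8 ± 5.11 in Low and 37.9 ± 3.50 in High preadipocytes (SD, n = 4 and 3), and 46.5 ± 2.99 in Low and 22.4 ± 4.46 in High progenitors (SD, n = 4 each).

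The remaining tRNA genes had wide spreads for their size. In preadipocytes the fold changes were −0.99 ± 0.34 for mt-Tg (glycine), −0.85 ± 0.36 for mt-Tk (lysine), −0.82 ± 0.38 for mt-Tt (threonine), −0.49 ± 0.42 for mt-Tm (methionine) and −0.67 ± 0.60 for mt-Td (aspartate), with limma adjusted p from 0.147 to 0.545. In progenitors they were 1.59 ± 0.54 for mt-Tg, 0.74 ± 0.42 for mt-Tk, 1.12 ± 0.59 for mt-Tt, 1.14 ± 0.36 for mt-Tm and 1.30 ± 0.59 for mt-Td, with limma adjusted p from 0.633 to 0.751. All 5 were on the lower side on Low milk in preadipocytes and on the higher side in progenitors, and 0 of them passed in either. The genes mt-Tn (asparagine) and mt-Tv (valine) were tested in preadipocytes, with −1.39 ± 0.62 and −0.49 ± 0.76 (SE, limma adjusted p = 0.234 and 0.742). Their counts were low, at 3.61 to 12.4 in Low and 12.1 to 36.4 in High preadipocytes for mt-Tn, and 3.61 to 19.9 in Low and 4.0 to 18.1 in High preadipocytes for mt-Tv.

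**Figure D4:**
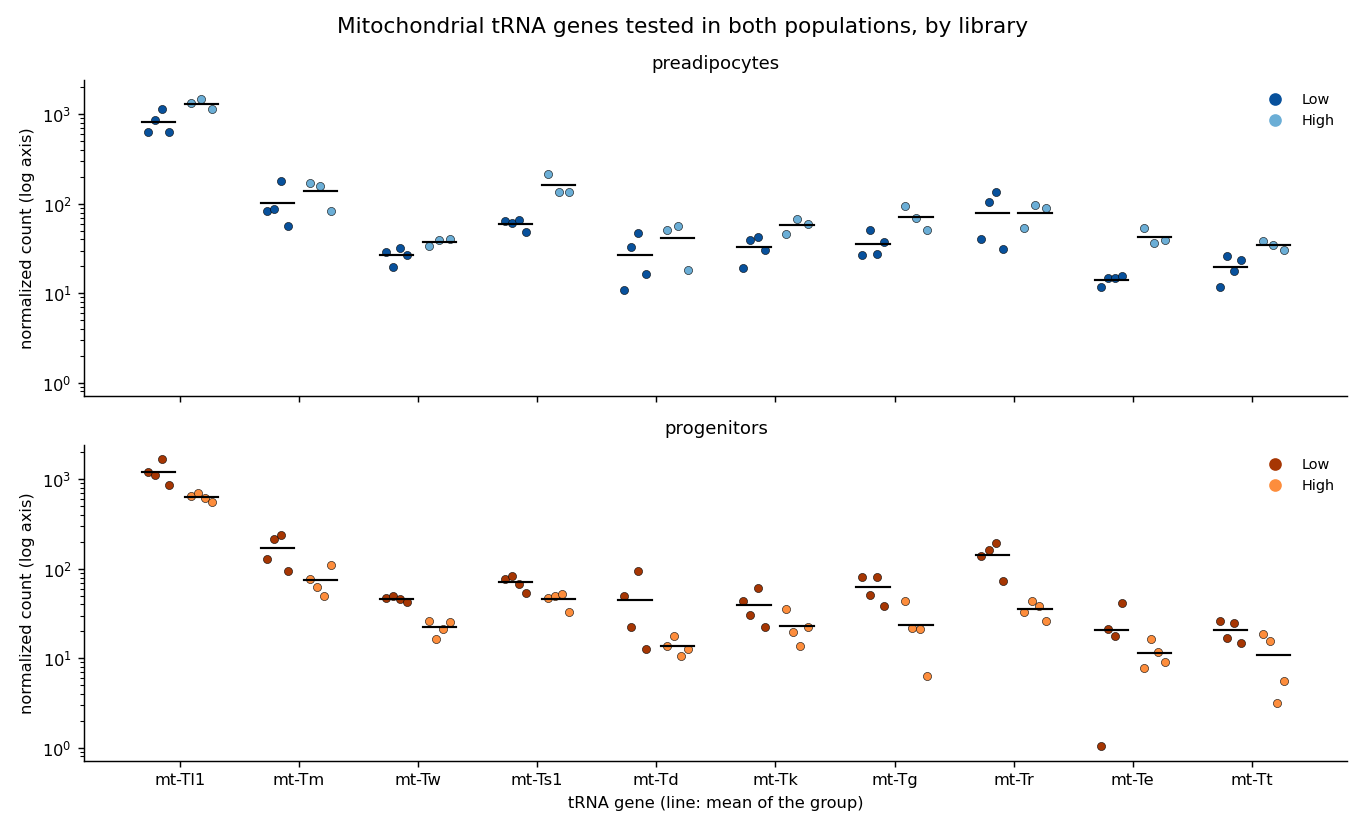
Normalized counts (log axis) of the 10 tRNA genes tested in both populations, 1 point per library and a line at the group mean, Low to the left of High, preadipocytes above and progenitors below. For mt-Tl1, mt-Tw and mt-Ts1 the Low points lie below the High points in preadipocytes and above them in progenitors.

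Whether the effect of milk differed between preadipocytes and progenitors was tested as an interaction over all 15 libraries, the preadipocyte effect minus the progenitor effect. A shift between the separately normalized tables is the same on both milks and drops out. All 25 members tested had a negative value, with a median of −1.63 on the log2 scale, against 0.05 over all 15354 genes. Of them 14 passed (10 protein-coding genes, mt-Rnr2, mt-Tl1, mt-Tw and mt-Ts1), against 1.65% of all genes in that direction. The smallest p was that of mt-Cytb, with a difference of −1.37 ± 0.15 (SE, limma adjusted p = 0.00184). The differences of mt-Atp8, mt-Nd4l, mt-Nd5 and mt-Nd6 were −1.95 ± 0.23, −1.48 ± 0.18, −1.14 ± 0.14 and −2.12 ± 0.27 (SE, limma adjusted p from 0.00225 to 0.00266). For mt-Tr the difference was −2.15 ± 0.65 (SE, limma adjusted p = 0.0963). With the copies added 17 of 25 passed, against 1.64% of all genes, the additional ones being mt-Co2 (−1.40), mt-Co3 (−1.07) and mt-Nd3 (−1.51). The count was 9 without preadipocyte High 1015 and 9 without High 1017, and 10 to 16 without any other library. Over all genes 70 passed without High 1015 and 95 without High 1017, against 350 with every library. The 16 came without preadipocyte High 1019, where 846 of all genes passed.

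The balance among the 13 protein-coding genes is described with the copies added. The share of mt-Co1 in their counts was 24.8 ± 0.744% in Low and 21.7 ± 0.919% in High preadipocytes, and 24.9 ± 0.609% in Low and 25.4 ± 0.698% in High progenitors (SD, n = 4, 3, 4 and 4). That of mt-Nd2 was 5.04 ± 0.304% in Low and 3.9 ± 0.295% in High preadipocytes, and 5.58 ± 0.0948% in Low and 5.43 ± 0.249% in High progenitors. That of mt-Atp8 was 6.39 ± 0.625% in Low and 8.43 ± 0.784% in High preadipocytes, and 7.18 ± 0.833% in Low and 5.78 ± 0.568% in High progenitors. In preadipocytes, mt-Co1 and mt-Nd2 held a larger mean share and mt-Atp8 a smaller one on Low than on High milk. Smaller there as well were mt-Cytb, at 11.9 ± 0.177% in Low and 13.5 ± 0.280% in High, and mt-Co2, at 9.22 ± 0.256% and 10.6 ± 0.565%. In all of these genes the preadipocyte shares of Low and High libraries were apart, and in the remaining genes they overlapped. Per kb of annotated length, mt-Atp8 had the highest level in each group, with a mean of 428460 normalized counts per kb in Low and 1174160 in High preadipocytes, and 467919 in Low and 330376 in High progenitors. It is annotated at 204 bases, 43 of them shared with mt-Atp6. Reads of mt-Atp6 may thus count towards it, and its level per kb is uncertain. The lowest level was that of mt-Nd6, with 1433 normalized counts per kb in Low and 3690 in High preadipocytes, and 1738 in Low and 1000 in High progenitors.

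Mitochondrial genes are poor in GC, and the preadipocyte values were also computed with a trend on GC content and length removed. The trend was fitted in each library over the genes tested, the members among them, so part of their own shift may be removed with it. Among genes tested in preadipocytes the median GC content was 50.3% and the 5th percentile 40.0%. The 13 protein-coding members had a median of 37.1%, and 12 of them lay below that percentile, as did both rRNA genes and 9 of 12 tRNA genes. All 12 tRNA genes also lay below the 5th percentile of length, 452 bases. With that smooth trend removed, the preadipocyte median over the 27 members was −0.14, 17 of 27 had lower values on Low milk and 0 passed, against 0.0566% of all genes. The value of mt-Cytb was then −0.73 ± 0.10 (SE, limma adjusted p = 0.0574), that of mt-Co1 −0.43 ± 0.10 (0.0768), that of mt-Nd6 −0.40 ± 0.14 (0.168) and that of mt-Atp8 −0.20 ± 0.11 (0.367). The members with the lowest GC content, mt-Td at 17.1% and mt-Tr at 22.1%, had 1.63 ± 0.56 and 1.76 ± 0.70 (SE, limma adjusted p = 0.166 and 0.217).

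With the same trend removed, the interaction kept 1 member, mt-Cytb (−0.85 ± 0.15 SE, limma adjusted p = 0.0338), against 0.873% of all genes, and the median of the 25 was −0.58. The progenitor median was 0.46, and 24 of 25 values stayed above 0. The part of base composition and the part of mitochondrial origin cannot be told apart for genes that nearly all lie at the low end of GC content.

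**Figure D5:**
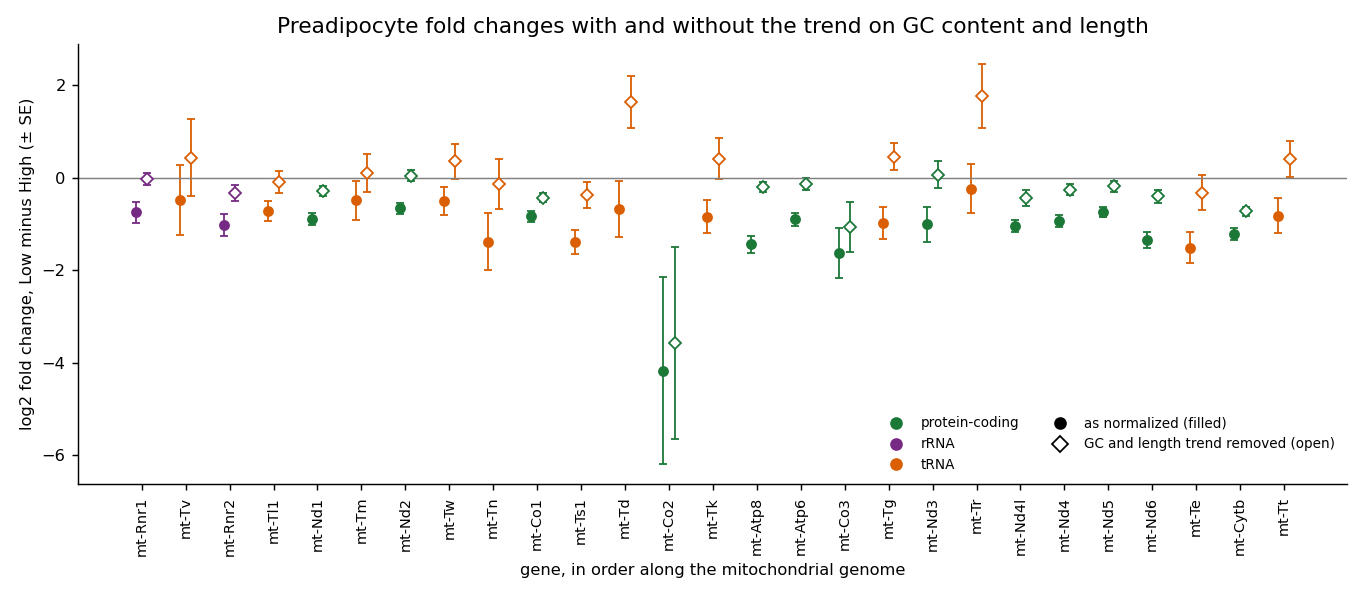
Preadipocyte log2 fold change, Low minus High, with its SE for the 27 tested mitochondrial genes in genome order, as normalized (filled circles) and with the trend on GC content and length removed (open diamonds), coloured by class. Every diamond lies above its circle, mt-Cytb stays at −0.73, and mt-Td and mt-Tr lie at 1.63 and 1.76.

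Nuclear genes that serve the mitochondrial genome were read from 7 lists. Of their 93 genes tested in preadipocytes 3 fell, or 3.23%, which is near the 2.35% of all genes that fell, and 0 rose. Of 10 genes of mitochondrial DNA maintenance (median log2 fold change −0.13), Ssbp1, the single-strand binding protein of replicating mitochondrial DNA, fell to 411 ± 27.6 normalized counts on Low milk, against 822 ± 220 on High milk (SD, n = 4 and 3). Its log2 fold change was −0.97 ± 0.19 (SE, limma adjusted p = 0.0434), and it was the one list gene past the threshold in the interaction (−0.99 ± 0.24 SE, limma adjusted p = 0.0457). Tfam, which packages the genome and takes part in starting its transcription, had −0.36 ± 0.18 (SE, limma adjusted p = 0.274), and the primase-polymerase gene Primpol 1.01 ± 0.41 (0.202). Of 8 transcription genes tested (median −0.24) 0 passed. The RNA polymerase gene Polrmt had −0.30 ± 0.45 (SE, limma adjusted p = 0.726), and the mTERF family genes Mterf4 and Mterf2 had −1.18 ± 0.35 (0.0993) and −2.50 ± 0.74 (0.101).

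Of 17 genes of mitochondrial mRNA stability, polyadenylation and decay (median 0.13), Slirp fell to 304 ± 64.8 normalized counts on Low milk, against 789 ± 251 on High milk (SD, n = 4 and 3), a log2 fold change of −1.34 ± 0.27 (SE, limma adjusted p = 0.0424). Its protein binds mitochondrial mRNAs together with that of Lrpprc, whose fold change was 0.58 ± 0.28 (0.268). Tbrg4, of the FASTK family, had 0.75 ± 0.21 (0.0936). Of 21 RNA processing and modification genes tested (median −0.12) 0 passed. Trmt10c, a subunit of the nuclease that cuts the 5′ ends of tRNAs, had −0.75 ± 0.23 (SE, limma adjusted p = 0.112), and the isoleucine tRNA synthetase gene Iars2 had 0.36 ± 0.13 (0.154).

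Of 15 genes of mitochondrial mass and import (median 0.05) 0 passed. The outer membrane channel gene Vdac3 had −0.37 ± 0.10 (SE, limma adjusted p = 0.0908), and the citrate synthase gene Cs had 0.33 ± 0.10 (0.0988). Of 10 biogenesis regulators (median −0.06) 0 passed. The transcription factor gene Yy1 had −0.25 ± 0.10 (0.196), the nuclear receptor gene Ppard 0.27 ± 0.12 (0.227) and the coactivator gene Ppargc1a −0.75 ± 0.62 (0.511), the last at a mean of 8.74 in Low and 15.9 normalized counts in High preadipocytes. Of 12 genes of mitophagy and dynamics (median 0.07), Fundc1, an outer membrane receptor of mitophagy, fell to 437 ± 49.5 normalized counts on Low milk, against 848 ± 208 on High milk (SD, n = 4 and 3), a log2 fold change of −0.93 ± 0.19 (SE, limma adjusted p = 0.0441). Another mitophagy receptor gene, Bnip3l, had −0.40 ± 0.12 (0.0989).

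The preadipocyte calls of Ssbp1, Slirp and Fundc1 ended with the GC and length trend removed (limma adjusted p = 0.0869, 0.0702 and 0.114), when limma was run without its trend and robust options, and when any 1 preadipocyte library other than High 1019 was left out. The interaction of Ssbp1 likewise ended with the trend removed (limma adjusted p = 0.142). Leaving out any 1 library other than preadipocyte High 1019 or progenitor High 1018 also ended it. So did the library number as a replicate block, limma without its trend and robust options, and no filter on low values (limma adjusted p = 0.0962, 0.0625 and 0.0627). In progenitors 0 genes of the 7 lists passed in limma, as did 0 of all genes tested.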

How the data were processed

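RNA-seq of sorted cells was deposited as 2 tables, one per population, each normalized on its own by the authors. Salmon 0.14.2 and DESeq2 1.28.1 are named in the submitters' processing notes; the sources used here do not give the annotation release or the strand setting. The authors' deposited log2 values have the floor and curve of a variance-stabilizing transformation of normalized counts, a reading taken from the values since no label names it. That transformation was inverted to normalized counts, which returned the authors' deposited log2 fold changes with a median absolute difference of 0.000751 (progenitors) and 0.00304 (preadipocytes) over genes with a mean of at least 100. Depth was estimated from the steps of low values. Because 28.4 to 78.7% of values came out whole within 0.02 of a read, no count test was run. Depth limits the precision of low genes, and replicates are the labelled samples.

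Genes were tested with limma 3.58.1 (R 4.3.3, trend and robust options) on log2(normalized count + 1), mean of at least 10, adjusted over all genes tested, with each population fitted alone and the interaction fitted over 15 libraries. The authors' deposited p-values and fold changes were read as an alternative. The GC and length trend was fitted with mgcv 1.9.3 in each library over the genes tested, members included. Gene IDs matched GENCODE M21 for 23322 of 23347 genes in progenitors and 23096 of 23118 in preadipocytes; copies were found with BLAST 2.17.0 (at least 95% identity over 200 bases) and added at 99%. Python 3.11.15, numpy 2.4.6 and pandas 2.3.3 were used. The fits were tested on simulated data.

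Values were named for every protein-coding and rRNA gene and every tRNA gene with a mean of at least 10, for copies with such a mean, and for the 2 genes of each nuclear list with the smallest p in preadipocytes plus Tfam, Polrmt, Lrpprc and Ppargc1a. Members and lists were chosen with earlier results of these data known. Alternatives were other filters, pseudocounts (0.5 and 8), scalings, the deposited values without inversion, other denominators of the share, the replicate block, the trend and each library left out.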

Additional observations from a re-analysis of the deposited data

Results flagged for a closer look

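The effect of milk differed between preadipocytes and progenitors, by the limma interaction over 15 libraries, in 14 of 25 mitochondrial genes. All 14 were negative, against 1.65% of all 15354 genes tested that passed in that direction. The difference, the preadipocyte Low minus High effect less that of progenitors on the log2 scale, was −1.15 for mt-Nd1, −0.91 for mt-Nd2, −1.48 for mt-Nd4l, −0.94 for mt-Nd4, −1.14 for mt-Nd5 and −2.12 for mt-Nd6 in complex I. It was −1.37 for mt-Cytb, −1.08 for mt-Co1, −1.95 for mt-Atp8 and −1.18 for mt-Atp6 in the other complexes. Of the RNA genes, mt-Rnr2 had −1.40, mt-Tl1 −1.63, mt-Tw −1.54 and mt-Ts1 −2.01. With the GC and length trend removed, 1 of the 14, mt-Cytb, stayed past the threshold, against 0.873% of all genes.

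A library far from the other 3 of its group was found in 4 of 89 groups of 4, where chance gives about 1 in 20. Preadipocyte Low 114 was the highest of its group for mt-Rnr2 at 40662 normalized counts, for mt-Nd3 at 1596 and for mt-Cytb at 187055. Progenitor High 1017 was the highest of its group for mt-Co2 at 93.7, where the other 3 libraries were listed at 0.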

How the results depend on the processing

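Counts of mitochondrial genes past the threshold were 11 of 27 in preadipocytes, 0 of 25 in progenitors and 14 of 25 in the interaction. In preadipocytes the count was 0 with the GC and length trend removed and 0 without limma's trend and robust options, where 9 and 6 of all genes passed. With 1 library left out it was 0 to 13, where 2 to 1160 of all genes passed, against 458 with every library. In progenitors it was 0 in every limma fit run and 4 in the authors' deposited table. In the interaction it was 1 with the trend removed and 11 without the trend and robust options, where 134 and 153 of all genes passed. With 1 library left out it was 9 to 16, where 70 to 846 of all genes passed, against 350 with every library. The other filters, pseudocounts, scalings, the deposited values without inversion and the added copies gave 11 to 14 in preadipocytes and 13 to 17 in the interaction. Over all genes, 430 to 634 passed in preadipocytes and 303 to 511 in the interaction in these settings. The other filters changed the members tested, to 20 or 34 in preadipocytes and 19 or 32 in the interaction. With nuclear genes scaled to one total, the median of all genes in the interaction moved to −0.10 from 0.05, and all 25 members stayed negative.

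With the replicate block 12 of 25 members passed in the interaction: 10 of the 14, while mt-Atp6, mt-Nd4, mt-Ts1 and mt-Tw no longer passed and mt-Nd3 and mt-Rnr1 did. Over all genes 43 passed, against 350. The block sets aside progenitor High 1018, which has no partner, and without that library alone 10 members and 177 genes passed. Libraries with the same number correlated between −0.0594 and 0.091 in their deviations. Numbers 119, 133 and 1015 correlated best with their own number, and the others did not. Values this near 0 do not settle whether the numbers pair the samples. With 1 library left out, the share of all counts lay between 2.61 and 2.79% in Low and 5.19 and 6.09% in High preadipocytes, and 2.40 and 2.59% in Low and 1.91 and 2.03% in High progenitors. Other denominators moved these shares by less than the SD. With the copies added, which was chosen after seeing the data, it was 4.04, 8.58, 3.39 and 2.81% in these 4 groups.

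Some signs changed, and the cause was not tested. In preadipocytes with the trend removed, mt-Nd2 had 0.045, mt-Nd3 0.064, mt-Tm 0.10, mt-Tw 0.35, mt-Tt 0.40, mt-Tk 0.41, mt-Tv 0.43, mt-Tg 0.45, mt-Td 1.63 and mt-Tr 1.76, and in the interaction mt-Tr had 0.19 and mt-Td 0.73. In progenitors with the copies added, mt-Atp6 had −0.025, mt-Co3 −0.019 and mt-Nd4 0.19. The value of mt-Nd4 in progenitors, −0.00083 as reported, was 0.068 with nuclear scaling, 0.021 in the authors' deposited table and −0.13 to 0.11 with 1 library left out. With 1 library left out, mt-Te in progenitors ranged from −0.33 to 1.14 and mt-Tr in preadipocytes from −0.59 to 0.11. Low counts limit the tRNA genes: 1 read is worth up to 2.43 normalized counts in High 1015.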
